A study of Mus musculus with 20 samples.

Results

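The ventricles of newborn wild-type mouse hearts were compared with atria of newborn wild-type hearts, over 6 of the 20 libraries of the study. The 6 libraries were chosen by their labels: 3 of wild-type ventricles and 3 of wild-type atria at postnatal day 3 (P3), where the labels give both chambers of a number to 1 pup. Sex-linked transcripts went against that label for number 2, whose 2 libraries came from a male and a female heart by these transcripts, so pup 2 stands below for the library pair labelled so. All pups were of the strain C57BL/6N, and the labels name no allele, transgene or agent for the wild-type pups and do not separate left from right chambers. Libraries from 3 littermates labelled MyHC-Creld1 KO, in which Creld1 was deleted in the myocardium, are used only to set other animals beside the wild-type pups. Each number had its own preparation date, shared by its 2 libraries. RNA was turned into cDNA by SMART-Seq2, a full-length method that copies polyadenylated RNA and keeps no record of the strand. The deposited values are a normalized signal per gene, without correction for gene length, so levels are compared here between libraries and not between genes.

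The atrium and the ventricle are built from related heart muscle cells that use different versions of the same parts. Atrial muscle contracts early and briefly at low pressure, secretes natriuretic peptide and carries an acetylcholine-gated potassium current. Ventricular muscle pumps against high pressure and leans on phospholamban, ventricular myosin light chains and, after birth, fatty acid oxidation. Chamber identity is held by transcription factors, among them Tbx5 and the COUP-TF genes on the atrial side and Hey2 and the Iroquois genes on the ventricular side.

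The defining markers Myl2, Myl7, Sln and Bmp10 were highest in the chamber the labels name, but 4 features set single libraries apart. The ventricular myosin light chain Myl2 was at 47714, 47555 and 51807 in the ventricles of pups 1 to 3, against 40.8, 9242 and 21.7 in their atria, so that the atria of pup 2 held ventricular transcripts. Of the 15 genes with the smallest p on the ventricular side (described below), the median gene stood at 9.80%, 27.9% and 5.26% of its ventricular mean in the atria of pups 1 to 3, and pup 2 gave the highest atrial library for 14 of them. The female-specific transcript Xist was at 2791, 74.9 and 2667 in ventricles, against 3596, 2876 and 6119 in atria, and the Y-linked Ddx3y was at 4.66, 465 and 1.80 in ventricles, against 1.17, 1.83 and 4.93 in atria. The ventricles of pup 2 thus carried Y-linked transcripts and its atria did not, although the labels give both to 1 animal. The atria of pup 3 correlated at 0.722 to 0.738 with the other atria, which correlated with each other at 0.844, while ventricles correlated with each other at 0.858 to 0.883 (log2 scale, across genes). The fat cell genes Adipoq and Plin4 were highest in that library. Adipoq was at 145 in the atria of pup 3 and listed at 0 in the other 5 libraries. Plin4 was at 47.0, 43.1 and 34.8 in ventricles, against 24.1, 68.6 and 320.1 in atria. Other lipid genes did not follow and were lowest in the atria of pup 3. Fabp4 was at 1744, 3370 and 638 in the atria of pups 1 to 3. Cd36 was at 5724, 8149 and 2242 there, and Lpl at 10625, 10593 and 3033. The presence of fat cells was not tested. Mitochondrial transcripts took 39.9%, 41.3% and 38.5% of the signal in ventricles, against 31.3%, 31.3% and 10.4% in atria. Estimated total counts were 13956255, 9471634 and 6366792 in ventricles, against 15885622, 5138313 and 5902444 in atria.

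Of 15003 genes tested, 30 were lower in the ventricles and 0 were higher at an adjusted p under 0.05 in limma's test with the pup number as a block. This was 0.2% of genes in the lower direction and 0.0% in the higher. At an unadjusted p under 0.05 there were 755 lower (5.03%) and 567 higher (3.78%), and 1282 genes (8.54%) had every ventricular library below every atrial one, against 1323 (8.82%) the other way round. The 30 called genes were lower by 2.58 to 7.65 on the log2(value + 1) scale, where 1 unit is a 2-fold change, and all 30 had ventricular and atrial libraries that did not overlap. They were called in these same libraries, so that separation follows largely from the choice. The smallest adjusted p on the ventricular side was 0.0505, for Hey2. The count moved with the pup left out: 53 lower (0.353%) and 18 higher (0.12%) without pup 1, 69 (0.46%) and 42 (0.28%) without pup 2, and 83 (0.553%) and 58 (0.387%) without pup 3. Of the 30 genes, 26, 29 and 30 were called lower without pups 1, 2 and 3, and Kcnj3, Igfbp5 and C530008M17Rik were among those not called without pup 1. Without pup 1 or 2 every gene was given the variance of the trend alone, and 1 residual degree of freedom was left. Without a variance trend limma called 0 genes in either direction, with 800 lower and 384 higher at an unadjusted p under 0.05. The p-values rest on the spread between these 3 labelled pairs (2 residual degrees of freedom) and more on the variance trend over all genes (7.91 prior degrees of freedom). In pieces of tissue fewer cells of a type and less RNA per cell cannot be told apart.

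**Figure D1:**
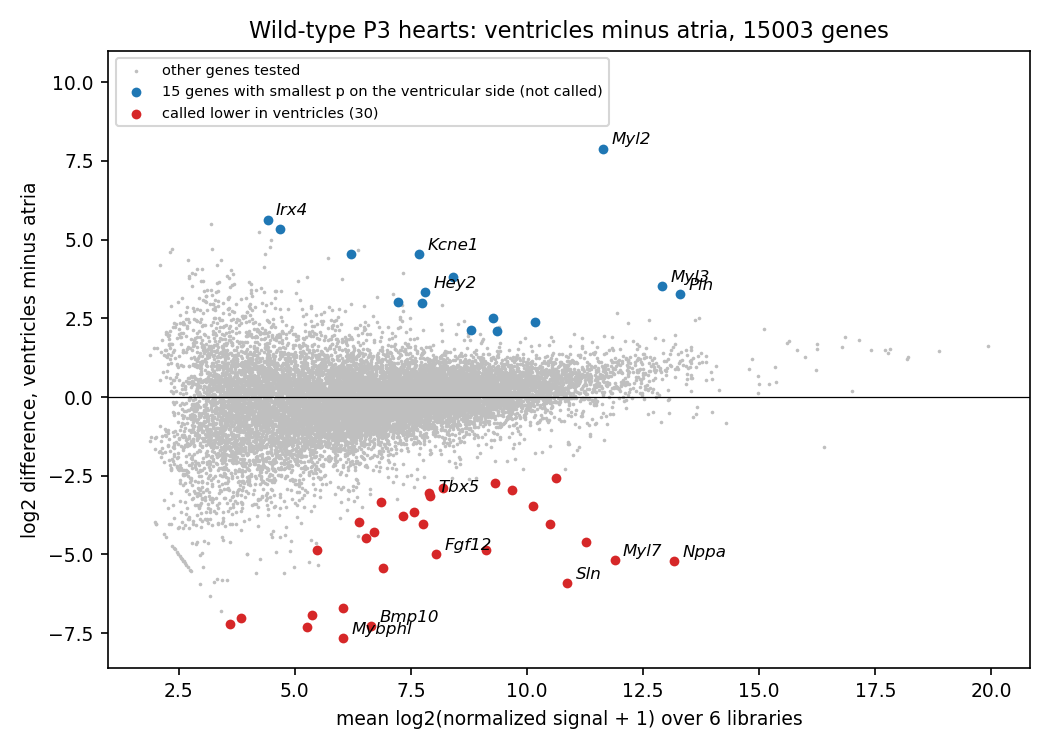
Log2 difference, ventricles minus atria, against the mean log2(normalized signal + 1) over the 6 libraries, 1 point per gene for 15003 genes. The 30 called genes lie between -7.65 and -2.58, and the 15 genes with the smallest p on the ventricular side lie between 2.08 and 7.89 without passing the threshold.

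Muscle proteins with atrial isoforms were among the genes called lower in ventricles. Myl7, the atrial regulatory myosin light chain, had a normalized signal of 571, 537 and 809 in ventricles, against 29117, 19989.8 and 20344 in atria. The log2 difference between the chambers of Myl7, ventricles minus atria, was -5.18 (SE 0.46, limma adjusted p = 0.00265). The atrial essential light chain Myl4 was at 448, 359.7 and 777 in ventricles, against 17636, 13172 and 8013 in atria (log2 difference -4.62, SE 0.50, limma adjusted p = 0.00712). Both light chains that pair on atrial myosin thus stood far lower in all 3 ventricles, with no overlap of the chambers. Myl1, a light chain best known from fast skeletal muscle, was at 406, 329 and 344 in ventricles, against 8140.4, 6583 and 3769.7 in atria (-4.03, SE 0.41, limma adjusted p = 0.00601). Mybphl, a myosin-binding protein of atrial and conduction muscle, was at 17.9, 0 and 4.35 in ventricles, against 497, 597 and 2722 in atria (-7.65, SE 0.90, limma adjusted p = 0.0122), and the atria of pup 3 stood highest. Sbk2 and Sbk3, which encode SH3-domain-binding kinases, were also called: Sbk2 was at 28.6, 0 and 0 in ventricles, against 513, 273 and 802 in atria (-7.29, limma adjusted p = 0.0389), and Sbk3 at 23.5, 2.97 and 60.9 in ventricles, against 1115, 555 and 797 in atria (-5.44, limma adjusted p = 0.0144). Differences of genes listed at 0 in some libraries depend on the pseudocount of 1.

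Myl7 (chromosome 11, 5896637 to 5898782, minus strand of mm10), Nppa (chromosome 4, 148000722 to 148002079, plus strand) and Bmp10 (chromosome 6, 87428994 to 87437677, plus strand) were called lower in ventricles, while Myl3 (chromosome 9, 110741861 to 110769798, plus strand) has the opposite pattern. Their promoters are shown as the DNA in front of genes with opposite chamber patterns. Each is the 250 bases before the start in RefSeq on GRCm38.p6, written 5′ to 3′ on the strand of the gene, and for Myl3 that start lies 32 bases from the principal GENCODE start. Capitals mark motifs of muscle and heart transcription factors, searched on both strands. The M-CAT motif, read by TEAD factors, was searched as CATTCC. The GATA motif was searched as AGATAA. The T-box motif was searched as AGGTGT. The CArG box of SRF and the MEF2 site were searched in their usual degenerate forms, and the TATA box as TATAAA on the given strand only. No match of the M-CAT motif overlapped a CArG box in the windows shown. The windows are chr11:5898783-5899032 (minus), chr4:148000472-148000721 (plus), chr6:87428744-87428993 (plus) and chr9:110763428-110763677 (plus).
Myl7: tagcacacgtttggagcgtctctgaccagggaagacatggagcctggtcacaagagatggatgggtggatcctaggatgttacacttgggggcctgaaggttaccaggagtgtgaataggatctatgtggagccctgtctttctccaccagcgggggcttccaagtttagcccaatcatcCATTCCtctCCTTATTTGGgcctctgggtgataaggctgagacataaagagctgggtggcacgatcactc
Nppa: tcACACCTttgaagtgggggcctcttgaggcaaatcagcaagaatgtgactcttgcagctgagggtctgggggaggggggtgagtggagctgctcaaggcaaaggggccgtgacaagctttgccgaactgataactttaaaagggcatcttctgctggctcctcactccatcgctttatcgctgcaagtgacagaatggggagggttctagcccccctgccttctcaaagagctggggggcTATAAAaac
Bmp10: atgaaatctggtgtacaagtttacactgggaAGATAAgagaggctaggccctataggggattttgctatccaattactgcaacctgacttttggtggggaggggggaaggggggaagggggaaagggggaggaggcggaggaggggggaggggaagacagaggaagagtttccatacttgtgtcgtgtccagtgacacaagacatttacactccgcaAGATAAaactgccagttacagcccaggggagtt
Myl3: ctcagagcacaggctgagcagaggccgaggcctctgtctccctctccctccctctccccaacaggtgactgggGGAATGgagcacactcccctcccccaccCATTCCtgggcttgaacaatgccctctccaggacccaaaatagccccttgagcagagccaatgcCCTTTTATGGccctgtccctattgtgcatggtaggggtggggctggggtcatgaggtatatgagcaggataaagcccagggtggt
In Myl7 an M-CAT match lay at -70 to -65 and a CArG box at -61 to -52 from the start, and in Myl3 M-CAT matches lay at -177 to -172 and -149 to -144 and a CArG box at -85 to -76. Nppa had T-box letters at -248 to -243 and TATAAA at -9 to -4, and Bmp10 had GATA letters at -219 to -214 and -33 to -28. Of the 30 genes called lower in ventricles 21 had a window, 26 windows in all, of which 19.2% held M-CAT, 11.5% GATA, 11.5% T-box, 7.69% a CArG box and 3.85% a MEF2 site. Of the 15 genes on the ventricular side 14 had one, 17 windows in all, with 17.6% M-CAT, 17.6% GATA, 23.5% T-box, 11.8% CArG and 0 MEF2. Over all 32851 windows the shares were 12.6%, 9.99%, 11.8%, 1.47% and 2.92% in the order M-CAT, GATA, T-box, CArG and MEF2. A CArG box was thus found in 2 windows of each set.

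Calcium handling and electrical genes followed. Sln encodes sarcolipin, the atrial inhibitor of the sarcoplasmic calcium pump, and gave the smallest p of all genes. It was at 267, 171 and 302 in ventricles, against 17561, 9151 and 19120.5 in atria (log2 difference -5.91, SE 0.40, limma adjusted p = 0.00065). Kcnj3, a subunit of the acetylcholine-gated potassium channel, was at 251, 307 and 325 in ventricles, against 3961, 2325 and 1298 in atria (-2.96, limma adjusted p = 0.0468). Its partner subunit Kcnj5 was at 421, 486 and 385 in ventricles, against 1389.7, 801 and 1118 in atria, without overlap and without passing (-1.32, limma adjusted p = 0.384). Gnao1, the Go alpha subunit that couples receptors to ion channels, was at 15.7, 0.794 and 17.6 in ventricles, against 265, 145 and 355 in atria, and was called (-4.87, limma adjusted p = 0.0483). Chrm2, the muscarinic receptor at the head of that route, was at 441, 565 and 513 in ventricles, against 1834, 1702 and 934 in atria, and did not pass (-1.50, limma adjusted p = 0.314). Kcnj3, Kcnj5, Gnao1 and Chrm2 each had all 3 ventricles below all 3 atria, as did 8.54% of all genes tested. Of the 4, Kcnj3 and Gnao1 were called, against 0.2% of all genes tested. The inhibitory G protein subunits of the same route did not share this: Gnai1 was at 415, 660.2 and 633 in ventricles, against 459, 542 and 91.0 in atria, and Gnai2 at 524, 479.7 and 516 in ventricles, against 379, 311 and 1457 in atria, with overlap in both.

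Gja5, which encodes the gap junction protein connexin 40 of atria and conduction fibres, was at 36.6, 118 and 33.8 in ventricles, against 898, 559 and 1343 in atria (-4.03, limma adjusted p = 0.0399). Fgf12, an intracellular regulator of sodium channels, was at 37.6, 41.6 and 60.9 in ventricles, against 2216, 1668 and 886 in atria (-4.99, SE 0.50, limma adjusted p = 0.00601). Its relative Fgf13 was at 1065, 945 and 1093 in ventricles, against 812, 564 and 273 in atria, a difference in the other direction that did not pass (1.04, limma adjusted p = 0.532). Kcnh7, a voltage-gated potassium channel of the ether-a-go-go family, was called at 18.2, 17 and 37.3 in ventricles, against 670.0, 545 and 267 in atria (-4.29, limma adjusted p = 0.0393). Camk1d, a calcium/calmodulin-dependent kinase, was at 25.2, 2.95 and 71.3 in ventricles, against 412, 316 and 629 in atria (-4.48, limma adjusted p = 0.0468). Over the 22 potassium channel genes tested, 1 was called lower and 0 higher, against 0.2% and 0.0% of all genes tested. There were 9 positive and 13 negative differences. The median was -0.18, and 0.02 after quantile normalization, so the family showed no shared direction. Kcna5, whose current is known as atrial in human hearts, was the exception among 20 atrial chamber genes: it was at 71.5, 116 and 109 in ventricles, against 39.7, 39.8 and 50.9 in atria (1.14, limma adjusted p = 0.634).

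Secreted factors formed the third group of called genes. Nppa encodes atrial natriuretic peptide and was at 971, 645 and 5411 in ventricles, against 45736, 32879.7 and 115762 in atria (log2 difference -5.21, SE 0.56, limma adjusted p = 0.00712). Both libraries of pup 3 were the highest of their chamber. Gm13054, an RNA on the opposite strand whose exons overlap those of Nppa, was called too (-6.69, limma adjusted p = 0.0144), but reads of the 2 genes cannot be told apart without strand. Bmp10, a growth factor of the BMP family made by atrial muscle after birth, was at 3.76, 10.4 and 8.70 in ventricles, against 1121, 978 and 1764 in atria (-7.27, SE 0.57, limma adjusted p = 0.00139). Its ventricular level was close to that of single reads, since 1 estimated count equalled a signal of 0.941, 1.49 and 2.18 in the ventricles of pups 1 to 3. Dkk3, a secreted member of the Dickkopf family, was at 329, 259 and 448 in ventricles, against 3989.6, 2839 and 4528 in atria (-3.46, SE 0.39, limma adjusted p = 0.00851).

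Gpx3, the secreted glutathione peroxidase, was at 121, 86.2 and 100 in ventricles, against 1650.4, 1103 and 14343 in atria (-4.86, limma adjusted p = 0.0226). The atria of pup 3, the library highest in Adipoq and Plin4, held by far the most, and the part of fat cells in this value was not tested. Uts2b, a peptide of the urotensin family, was at 0.941, 0 and 0 in ventricles, against 309, 144 and 95.9 in atria (-7.03, limma adjusted p = 0.0393). Npr3, the clearance receptor for natriuretic peptides and a marker of endocardium, was at 119, 149.6 and 67.5 in ventricles, against 1002, 903 and 566 in atria (-2.90, limma adjusted p = 0.0393), so both the peptide Nppa and this receptor were lower in ventricles. Igfbp5, a binding protein of insulin-like growth factors, had the smallest difference of the called genes, with 694, 702 and 557 in ventricles, against 4065, 3029 and 4728 in atria (-2.58, limma adjusted p = 0.0483). Angpt1, the angiopoietin ligand, just missed the threshold at 168, 177 and 175 in ventricles, against 1379, 1292 and 678 in atria (-2.61, limma adjusted p = 0.0505), and its receptor Tek was at 662, 592 and 593 in ventricles, against 1797, 1439.9 and 1003 in atria (-1.16, limma adjusted p = 0.431). Adm, the vasodilator adrenomedullin, was at 28.2, 38.6 and 32.6 in ventricles, against 213, 232 and 476 in atria (-3.09, limma adjusted p = 0.0809). Of 31 genes tested on the list of secreted factors, 4 were called lower (Bmp10, Nppa, Dkk3 and Fgf12, which the list holds as a member of the growth factor family although its product stays in the cell) and 0 higher. Called lower were 0.2% of all genes tested. Chambers did not overlap for 13 of the 31 in the lower and 3 in the higher direction, against 8.54% and 8.82% of all genes tested. Fgf16 and Fgf9, growth factors of embryonic heart, ran the other way: Fgf16 was at 96.0, 87.7 and 69.6 in ventricles, against 2.13, 11.1 and 1.96 in atria (4.14, limma adjusted p = 0.192), and Fgf9 at 202, 189 and 248 in ventricles, against 29.4, 109 and 23.0 in atria (2.30, limma adjusted p = 0.324).

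**Figure D2:**
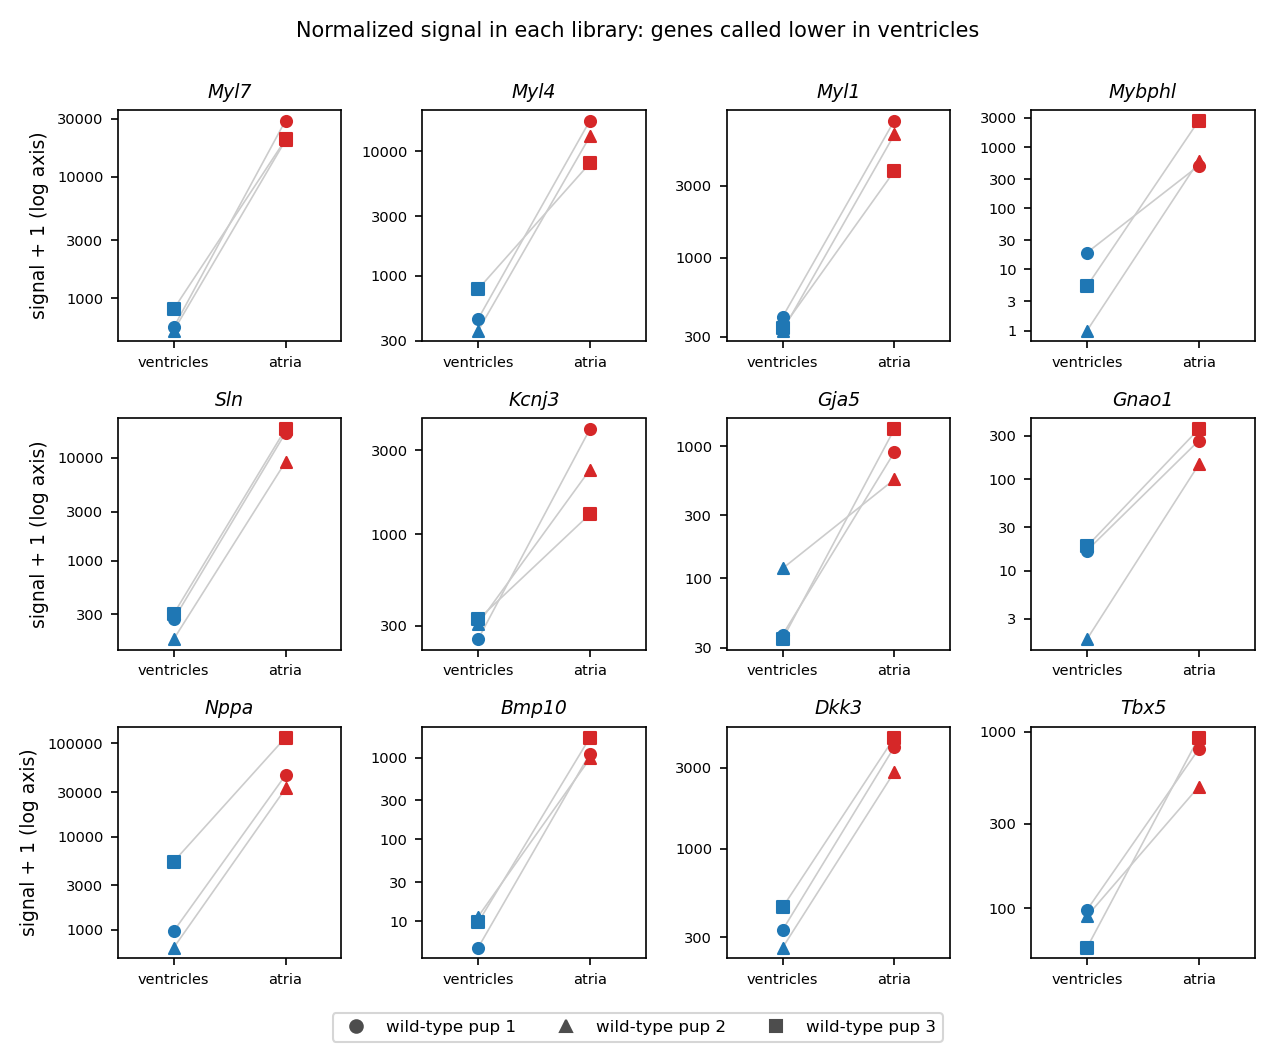
Normalized signal + 1 (log axis) of 12 genes called lower in ventricles, ventricles left and atria right, 1 line and symbol per pup. In each panel the 3 ventricular points lie below the 3 atrial points; Kcnj3 spans 251 to 325 in ventricles and 1298 to 3961 in atria.

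The list of transcription factors had fewer called genes than the sarcomere and secreted lists. Tbx5, the T-box factor of atria and conduction system, was at 96.6, 89.0 and 58.6 in ventricles, against 798, 488 and 927 in atria (-3.15, limma adjusted p = 0.0403). Of 35 chamber transcription factors tested, 2 were called lower, Tbx5 among them, and 0 higher, against 0.2% and 0.0% of all genes tested. Chambers did not overlap for 7 of the 35 in the lower and 9 in the higher direction, against 8.54% and 8.82% of all genes tested. The differences were positive for 14 and negative for 21, around a median of -0.13, in a list that holds factors of both chambers. Nr2f2, the COUP-TF gene that holds atrial identity, was at 1157, 1751 and 2061 in ventricles, against 6581, 5109.8 and 424 in atria, so that the chambers overlapped through the atria of pup 3 (-0.59, limma adjusted p = 0.854; called lower without pup 3). Its relative Nr2f1 was at 42.8, 23.1 and 81.3 in ventricles, against 293, 82.1 and 106 in atria (-1.64, limma adjusted p = 0.512). Gata4, a zinc finger factor of both chambers, was at 120.1, 96.3 and 154 in ventricles, against 217, 163 and 579 in atria, and Tbx20 at 2283, 2291 and 1938 in ventricles, against 4486, 4455 and 2842 in atria. Neither passed (-1.17 and -0.83, limma adjusted p = 0.524 and 0.613).

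The other called genes have less settled roles in atria and were picked out here because they were called. Tmem163, a zinc transporter, was at 8.95, 4.24 and 0 in ventricles, against 525, 354 and 514 in atria (-6.94, limma adjusted p = 0.0144), and Slc39a8, a metal ion importer, at 119, 41.9 and 107 in ventricles, against 1207, 508 and 514 in atria (-3.05, limma adjusted p = 0.0452). Adamts8, a secreted protease, was at 37.6, 49.1 and 41.4 in ventricles, against 606, 688 and 513 in atria (-3.79, limma adjusted p = 0.0144). Fras1, an extracellular matrix protein of basement membranes, was at 41.3, 82.8 and 42.4 in ventricles, against 719, 433 and 962 in atria (-3.64, limma adjusted p = 0.0399). Epha4, an ephrin receptor, was at 272, 147 and 369.7 in ventricles, against 1756, 1414 and 1729 in atria (-2.72, limma adjusted p = 0.0399), and was the gene of the 30 not called without pup 2. In all 5 genes the ventricles lay below the atria without overlap, against 8.54% of all genes tested. They were picked as called in the same libraries, so this separation follows largely from the choice. Slc39a8 stood highest in the atria of pup 1. C530008M17Rik was at 35.4, 45.3 and 28.8 in ventricles, against 449, 359 and 309 in atria. Exons of Nppa, Myl4, Mybphl, Tmem163, Npr3, Kcnh7, Gja5, Kcnj3, Gnao1, Adamts8, Fras1 and C530008M17Rik, and of Myl2, Myl3, Abcc9, Pln and Ckmt2 on the ventricular side, overlap those of a gene on the opposite strand, whose reads could not be told apart. 5430419D17Rik was listed at 0 in all 3 ventricles, against 122, 144 and 186 in atria, so no fold is given.

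On the ventricular side no gene passed in limma's test with the pup number as a block, and the 15 genes described next are those with the smallest p there, with adjusted p from 0.0505 to 0.126. All 15 had ventricular libraries above every atrial one, against 8.82% of all genes tested. They were chosen as higher in all 3 pairs and by p in the same libraries, so this separation follows largely from the choice. Leaving out pup 2, whose atria held ventricular transcripts, 12 of them were called, and leaving out pup 3, 9, against 0.28% and 0.387% of all genes tested called higher. Called under both were 7 genes in all: Abcc9, Aqp7, Ckmt2, Ddc, Hey2 and Myl3 of the 15, and Fabp4. With both genotypes in 1 fit of 12 P3 libraries, 43 genes were called lower (0.287%) and 9 higher (0.06%) in wild-type ventricles, the 9 being Myl2, Hey2, Trib2, Ckmt2, Abcc9, Pln, Lclat1, Myl3 and Eprn, and without the pup as a block 27 were called lower (0.18%) and 2 higher (0.0133%), Aqp7 and Lclat1.

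The contractile and calcium genes led. Myl2, whose levels stand above, had the largest difference of the 15, 7.89 (SE 1.32, limma adjusted p = 0.0578), and it was called without pup 2 but not without pup 3. Myl3, the ventricular essential light chain, was at 26895, 25225 and 26270.3 in ventricles, against 1255, 6015 and 1530.2 in atria (3.53, SE 0.60, limma adjusted p = 0.059). Pln encodes phospholamban, the ventricular counterpart of sarcolipin on the calcium pump, and was at 33682, 34027 and 26255 in ventricles, against 3379.8, 8734 and 1148 in atria (3.26, SE 0.63, limma adjusted p = 0.106). The ventricles were within a narrow range for all 3 genes, and for each the highest atrial library was that of pup 2. Cavin4, a caveolar coat protein of muscle, was at 512, 520.4 and 809 in ventricles, against 67.4, 192 and 32.3 in atria (2.98, limma adjusted p = 0.126). Myh7, the slow beta myosin heavy chain, was at 10932, 6231 and 5158 in ventricles, against 2136, 2979 and 1027 in atria (1.92, limma adjusted p = 0.248).

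Sarcomere genes shared by both chambers had smaller differences, none of them called. Myh6, the alpha myosin heavy chain used in both chambers after birth in mice, was at 110231, 91672 and 109989 in ventricles, against 70961, 73959 and 34508 in atria, a difference of 0.87 that was -0.14 after quantile normalization (limma adjusted p = 0.85 with the deposited scaling). Actc1, cardiac actin, was at 44341, 39213 and 38703 in ventricles, against 25481, 26925 and 23934 in atria, 0.68 and after quantile normalization -0.21. Over 35 sarcomere genes tested, 4 were called lower (Myl7, Myl4, Myl1 and Mybphl) and 0 higher, with 24 positive and 11 negative differences and a median of 0.37, which was -0.16 after quantile normalization. The list therefore has no direction that holds under both scalings, and its called members are the 3 light chains and the myosin-binding protein described above. In calcium cycling, 28 genes tested, Sln was the 1 called, with a median of 0.16 that was -0.02 after quantile normalization. For both lists the share called lower over all genes tested was 0.2%. Cacna1c, the pore of the L-type calcium channel, was at 592, 722 and 806 in ventricles, against 326, 355 and 281 in atria (1.13, limma adjusted p = 0.455), and Cacna2d2, an auxiliary calcium channel subunit, at 4.99, 11.8 and 1.92 in ventricles, against 110.2, 146 and 121 in atria (-4.37, limma adjusted p = 0.107).

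Transcription factors of the ventricle had low atrial levels. Hey2, the Notch-pathway repressor that keeps atrial genes off in ventricles (chromosome 10, 30832359 to 30842801, minus strand of mm10), was at 692, 929.8 and 563 in ventricles, against 29.7, 223 and 49.4 in atria (3.34, SE 0.54, limma adjusted p = 0.0505). Irx4, the Iroquois factor of the ventricle, was at 174, 159 and 119.7 in ventricles, against 0, 26.5 and 0 in atria (5.64, SE 1.13, limma adjusted p = 0.125), and Irx2 at 121, 116 and 106 in ventricles, against 0, 26.9 and 0 in atria (5.25, limma adjusted p = 0.172). Both were listed at 0 in the atria of pups 1 and 3, and both were called without pup 2. Irx1 was at 27.3, 26.8 and 21.8 in ventricles and listed at 0 in all 3 atria, so no fold is given. Irx3, of the second Iroquois cluster, was at 79.9, 123 and 101 in ventricles, against 11.8, 13.8 and 8.16 in atria (3.07, limma adjusted p = 0.25), and Irx5 at 48.9, 77.3 and 84.9 in ventricles, against 46.8, 4.43 and 26.4 in atria (1.85, limma adjusted p = 0.586). All 5 Iroquois genes tested thus had chambers that did not overlap, against 8.82% of all genes tested, while none passed. Irx5 was apart only narrowly, with 48.9 in the ventricles and 46.8 in the atria of pup 1. Irx6 was too low to test. Eprn, a long noncoding RNA, lies beside Irx4 on chromosome 13 (73344665 to 73347384, minus strand, with Irx4 at 73260479 to 73269608, plus strand) and was at 392, 363 and 318 in ventricles, against 6.38, 70.8 and 5.87 in atria (4.54, SE 0.77, limma adjusted p = 0.0578). Prdm16, a factor of compact ventricular myocardium and of brown fat, was at 376, 467 and 468 in ventricles, against 22, 219 and 37.6 in atria (2.91, limma adjusted p = 0.151). Hopx, a homeodomain cofactor of heart muscle, was at 358, 435 and 581 in ventricles, against 211, 187 and 71.4 in atria (1.66, limma adjusted p = 0.399).

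Channel genes of the ventricular side were Kcne1 and Abcc9. Kcne1, the beta subunit of the slow delayed rectifier potassium channel, was at 859.7, 1089 and 1046 in ventricles, against 3.69, 405 and 39.5 in atria (4.55, SE 0.91, limma adjusted p = 0.122), and the atria of pup 2 stood well above the other atria. Abcc9, the sulfonylurea receptor subunit of ventricular KATP channels, also a pericyte gene, was at 1498, 1487 and 1432 in ventricles, against 169, 459.7 and 212 in atria (2.53, SE 0.43, limma adjusted p = 0.059). Gja1, which encodes connexin 43, was at 76875, 101772 and 91199 in ventricles, against 56362, 70144 and 5168 in atria (1.71, limma adjusted p = 0.683). Kcnd2, which carries a transient outward current, was the ventricular chamber gene with a negative difference, at 80.0, 56.5 and 69.6 in ventricles, against 61.7, 131 and 65.6 in atria (-0.25, limma adjusted p = 0.926). The difference of Gja1 rested on the atria of pup 3: it was 0.45, 0.54 and 4.14 in pups 1 to 3 and 0.49 without pup 3.

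Genes of energy and small-molecule metabolism, with Trib2, filled the rest of the 15. Ckmt2, the mitochondrial creatine kinase of muscle, was at 2248, 2152 and 3862 in ventricles, against 307, 836 and 504 in atria (2.39, SE 0.45, limma adjusted p = 0.0937). Aqp7, a glycerol channel, was at 512, 428 and 349 in ventricles, against 42.1, 59.1 and 55.0 in atria (3.02, SE 0.50, limma adjusted p = 0.0531), and its atrial library of pup 2 lay near the other 2. Ddc, the decarboxylase of aromatic amino acids that makes dopamine and serotonin, was at 1353, 1779 and 838 in ventricles, against 135, 437 and 11.2 in atria (3.81, SE 0.68, limma adjusted p = 0.0719). Fbp2, the muscle fructose bisphosphatase, was at 158, 178 and 148 in ventricles, against 0, 15.5 and 2.94 in atria (5.33, SE 0.98, limma adjusted p = 0.0809). Lclat1, an acyltransferase of cardiolipin remodelling, was at 874, 1038 and 862 in ventricles, against 215, 193 and 225 in atria (2.12, SE 0.40, limma adjusted p = 0.0955), and it was the 1 gene of the 15 whose highest atrial library was not that of pup 2. Trib2, a pseudokinase, was at 1509, 1357 and 1206 in ventricles, against 281, 549 and 209 in atria (2.08, limma adjusted p = 0.126). Outside the 15, Mb, the oxygen-binding protein myoglobin, was at 15946, 13500.0 and 14951 in ventricles, against 1400.1, 3585 and 3998 in atria (2.44, limma adjusted p = 0.162).

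**Figure D3:**
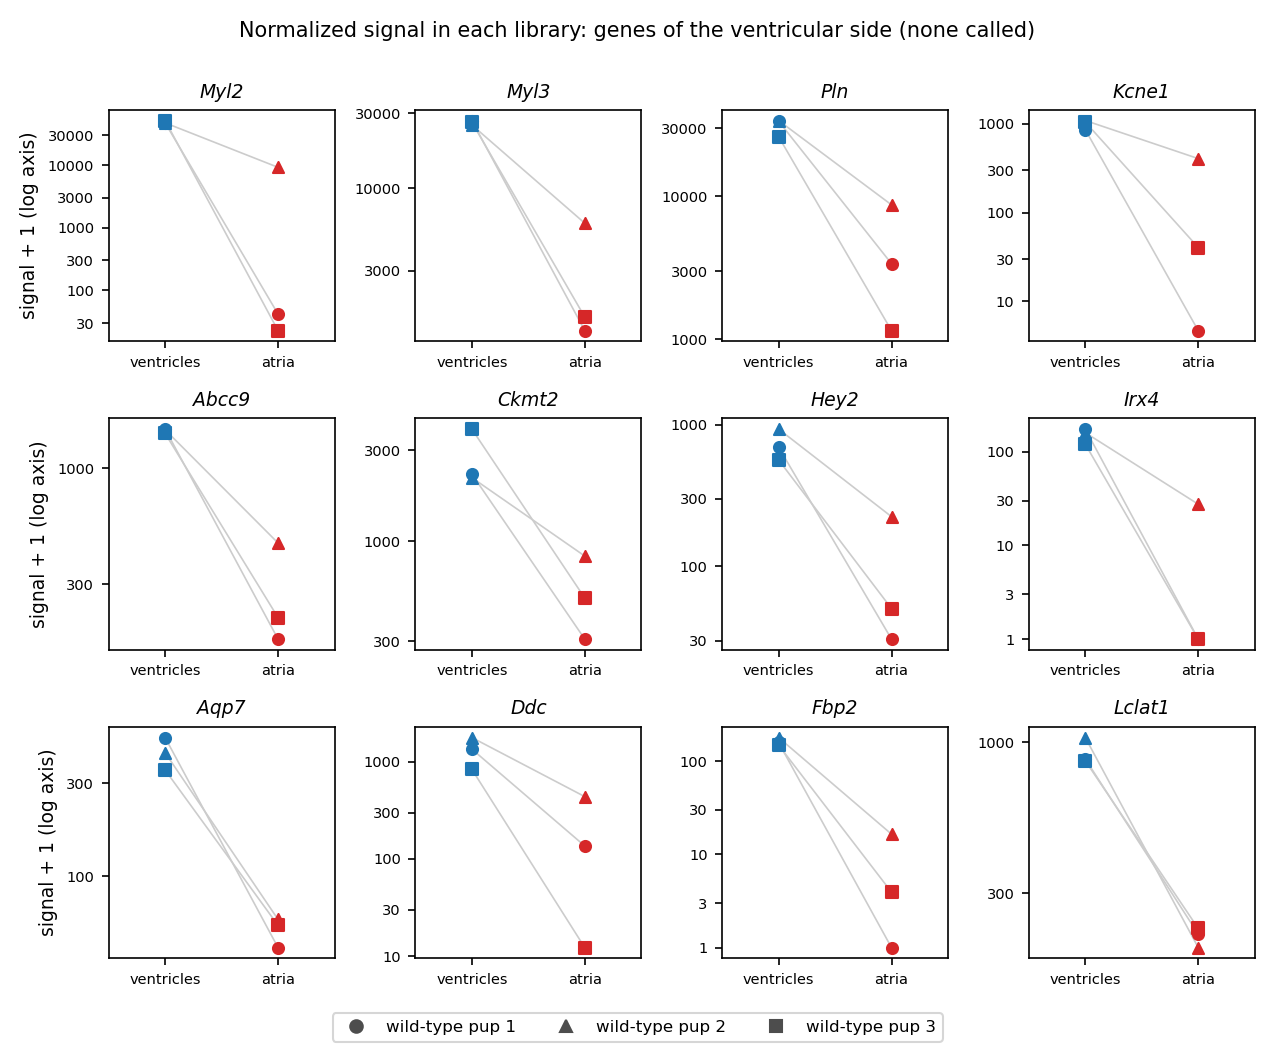
Normalized signal + 1 (log axis) of 12 genes of the ventricular side, none of them called, ventricles left and atria right, 1 line and symbol per pup. In 11 of the 12 panels the atria of pup 2 (triangle) lie highest among the atria, as for Myl2 at 9242 against 40.8 and 21.7 in the atria of the other 2 pups.

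Mitochondrial energy genes leaned to the ventricles as a body of many small differences. Among the 76 genes of the respiratory chain and citrate cycle, all 76 had a positive difference and 61 had chambers that did not overlap, against 8.82% of all genes tested, with 0 called and a median of 1.03, against a median of -0.00 over all genes tested. The medians of pups 1 to 3 were 1.02, 0.71 and 1.37, and the median was 0.58 after quantile normalization. Among 33 genes of fatty acid uptake and oxidation, 32 were positive and 23 did not overlap, against the same 8.82%, again with 0 called and a median of 1.23 (1.35, 1.13 and 1.13 in pups 1 to 3, and 0.85 after quantile normalization). Without pup 3, 11 of the 76 and 15 of the 33 were called higher in ventricles, against 0.387% of all genes tested. Without pup 2 none of either list was called, against 0.28% of all genes tested called higher, and the list medians were 1.16 and 1.36. The share of signal from mitochondrial transcripts moved in the same direction and was lowest, at 10.4%, in the atria of pup 3, and its part in these lists was not tested.

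The members named next were among those with the smallest p of their lists, and their differences lie above the list medians. Acadm, the medium-chain acyl-CoA dehydrogenase, was at 6713, 5976 and 6396 in ventricles, against 1897, 2227 and 1045 in atria (1.95, limma adjusted p = 0.199). Hadhb, a subunit of the trifunctional protein of beta-oxidation, was at 9189.7, 8319 and 7039.8 in ventricles, against 2396, 2743 and 2074 in atria (1.77, limma adjusted p = 0.263). Fabp3, the heart fatty acid binding protein, was at 30197, 28114 and 30005 in ventricles, against 4125, 10109 and 3863 in atria (2.43, limma adjusted p = 0.259). These fatty acid genes, with roles from binding in the cytosol to beta-oxidation, had the same pattern, which follows largely from the choice by p. On their whole list 23 of 33 had chambers that did not overlap, against 8.82% of all genes tested. Pdk4, the kinase that turns off pyruvate dehydrogenase, was at 1471, 2036 and 2299.9 in ventricles, against 566, 584 and 417 in atria (1.88, limma adjusted p = 0.152). Sdha, of succinate dehydrogenase, was at 9055, 10932 and 11015 in ventricles, against 4508, 4579 and 2082 in atria (1.55, limma adjusted p = 0.415). Ndufs6, of complex I, was at 3875, 3812 and 4218 in ventricles, against 1179, 1720.2 and 1215 in atria (1.55, limma adjusted p = 0.295). The 23 glycolysis and lactate genes did not share a direction, with 10 positive and 13 negative, 0 called and a median of -0.05 that was 0.45 without pup 3.

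**Figure D4:**
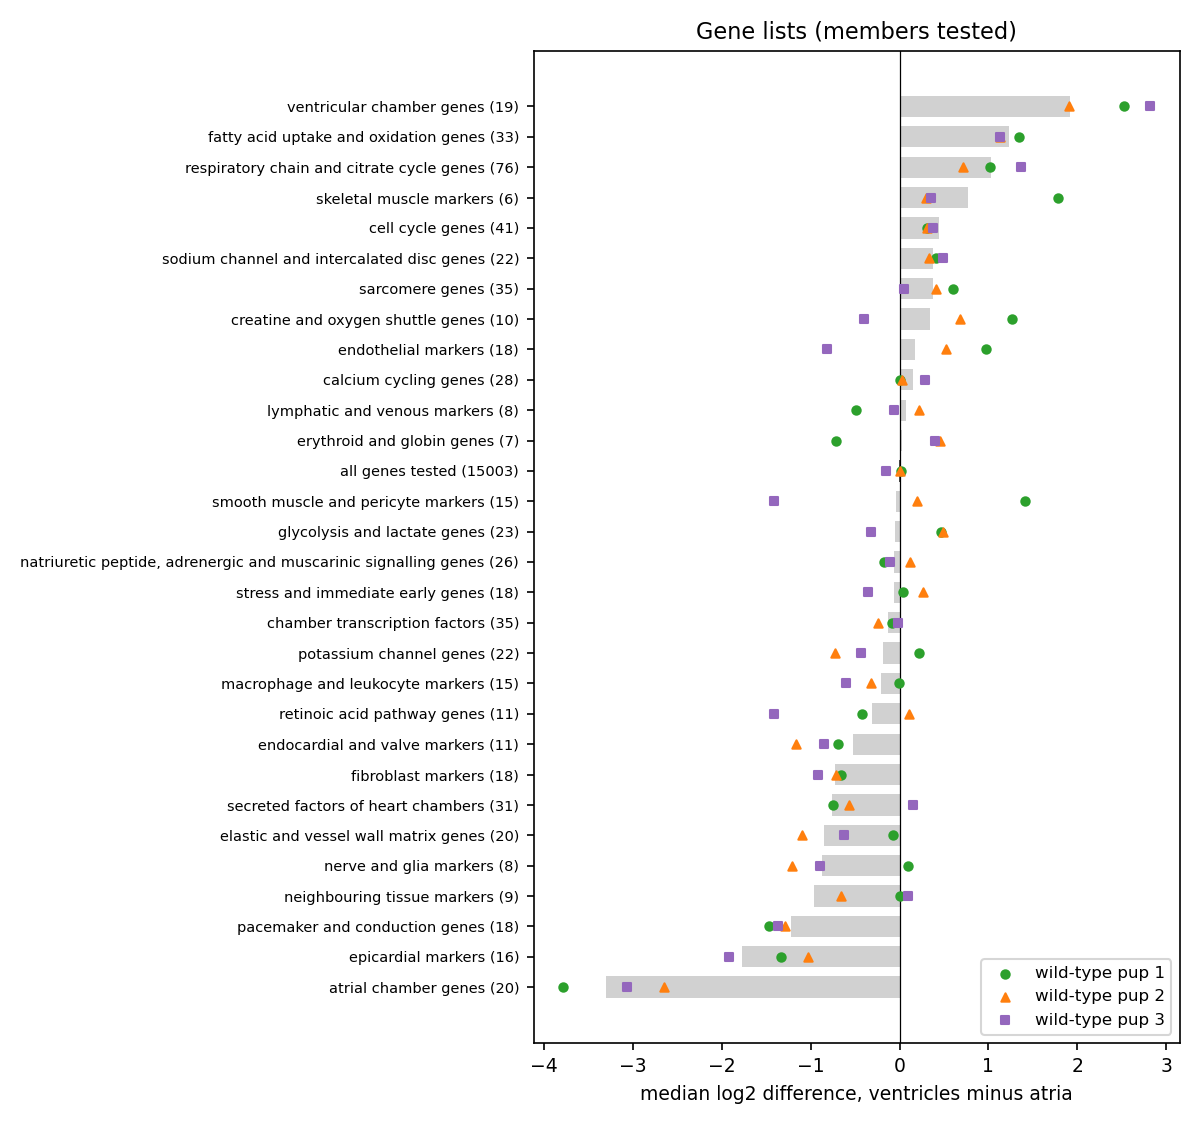
Median log2 difference, ventricles minus atria, of each gene list (bars, number of members tested in brackets) and its value in each pup (symbols). The atrial chamber genes lie lowest at -3.30 and the ventricular chamber genes highest at 1.92, and all genes tested lie at -0.00.

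Against the chamber lists themselves, 11 of 20 atrial chamber genes were called lower, against 0.2% of all genes tested, 17 of 20 had chambers that did not overlap in that direction, against 8.54%, and the median was -3.30 (-3.78, -2.65 and -3.07 in pups 1 to 3). Of 19 ventricular chamber genes tested, 0 were called, 14 did not overlap, against 8.82% of all genes, and 18 were positive, with a median of 1.92 (2.52, 1.91 and 2.82 in pups 1 to 3). Without pup 2, 5 of them were called higher, as many as without pup 3, against 0.28% and 0.387% of all genes tested. Hand1 and Scn4b of the list were too low to test. The 3 atrial genes left were Kcna5 and, with overlapping chambers, Nr2f2 and Pam. Pam, the enzyme that amidates peptides and is abundant in atrial granules, was at 43563, 50543 and 56179 in ventricles, against 369150.0, 269422 and 33823 in atria (-1.59, limma adjusted p = 0.754), and without pup 3 it was called lower at -2.75, as was Nr2f2 at -2.03. The lists were written with earlier results of these data known. The list of pacemaker and conduction genes is not confined to the sinus node, since it holds Gja5 of atria and conduction fibres. Of its 18 genes tested 15 were negative, with 1 called (Gja5) and a median of -1.22. Over all genes tested, 7502 of 15003 were negative and 0.2% were called lower. Tbx3 of this list was at 49.7, 26.9 and 27.7 in ventricles, against 24.5, 54.3 and 36.9 in atria, with overlap. Isl1 was listed at 0 in the atria of pup 3 and overlapped too. Shox2, a factor of the sinus node, was at 2.0, 24.0 and 16.3 in ventricles, against 153, 72.0 and 105 in atria (-3.28, limma adjusted p = 0.344). Hcn4, a pacemaker channel, was at 62.1, 0 and 8.70 in ventricles, against 216, 22.1 and 88.1 in atria (-3.17, limma adjusted p = 0.342), with overlap. Vsnl1, a neuronal calcium sensor found in the sinus node, was listed at 0 in all 3 ventricles, against 223, 90.7 and 67.2 in atria. Scn10a, a sodium channel whose gene is tied to conduction in human hearts, was at 0.932, 1.47 and 30.2 in ventricles, against 123, 43.8 and 185 in atria (-4.25, limma adjusted p = 0.191).

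Markers of cells other than muscle also differed between the pieces of tissue, and their part in the muscle results was not tested. Fibroblast markers had lower summed signal in ventricles, 62088 to 66184 over the 3 pups, against 99248 to 103858 in atria, with 16 of 18 members negative, 0 called and a median of -0.73. The matrix gene Fbln1 led them at 158, 114 and 137 in ventricles, against 496, 451 and 2368 in atria (-2.58, limma adjusted p = 0.135). Epicardial markers summed to 1222 to 1595 in ventricles, against 2794 to 5009 in atria, with 15 of 16 negative, 0 called and a median of -1.77. Msln, mesothelin of the heart surface, was at 57.4, 58.0 and 67.4 in ventricles, against 308, 226 and 1060.0 in atria (-2.77, limma adjusted p = 0.112), and Upk3b at 67.7, 56.5 and 71.8 in ventricles, against 189, 184 and 954 in atria (-2.29, limma adjusted p = 0.261). The chambers did not overlap for 10 of the 16 in the lower direction, against 8.54% of all genes tested, and Lrp2 was higher in all 3 ventricles. Tbx18, at 149.6, 364 and 272 in ventricles, against 471, 750.0 and 275 in atria, was among those that overlapped. Endocardial and valve markers summed to 1498 to 1811 in ventricles, against 3200 to 4359 in atria, with 8 of 11 negative, Npr3 called and a median of -0.52. Over all genes tested, 0.2% were called lower.

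Endothelial markers summed to 13232 to 17081 in ventricles, against 6424 to 8843 in atria, and Fabp4 alone gave most of the ventricular sum. Of the markers, 11 of 18 were positive and 7 negative around a median of 0.17 that was -0.08 without pup 2, and 0 were called. Fabp4, of capillary endothelium, was at 8061, 10439 and 11718 in ventricles, against 1744, 3370.3 and 638 in atria (2.68, limma adjusted p = 0.136; called without pup 2 and without pup 3), while Kdr, a receptor for vascular endothelial growth factor, was at 863, 1245 and 1318 in ventricles, against 371, 411 and 454 in atria (1.45, limma adjusted p = 0.295). Plvap, of fenestrated vessels, was at 9.41, 8.92 and 17.4 in ventricles, against 36.2, 44.2 and 357 in atria (-2.77, limma adjusted p = 0.384). Aqp1, a water channel of capillaries on the same list, was at 129.8, 103 and 52.2 in ventricles, against 77.3, 95.1 and 561 in atria, with overlap, so the vessel markers had no shared direction. Smooth muscle and pericyte markers had pup medians of 1.41, 0.20 and -1.42, so pups 1 and 3 disagreed in sign; their sums were 6584, 6225 and 6728 in ventricles, against 2527, 4706 and 10484 in atria. Cell cycle genes were positive in 29 of 41 with a median of 0.44 and 0 called, and 5 did not overlap in that direction, a share near the 8.82% of all genes. Birc5, of the mitotic spindle, was at 605, 793 and 785 in ventricles, against 220.2, 252 and 262 in atria (1.56, limma adjusted p = 0.263). None of the macrophage, nerve, red cell, neighbouring tissue, skeletal muscle, retinoic acid and stress gene lists had a called member, and their medians lay between -0.96 and 0.77. The same held for lymphatic and venous markers (0.07), vessel wall matrix genes (-0.85) and creatine and oxygen shuttle genes (0.35). Of 22 sodium channel and intercalated disc genes, Fgf12 and Gja5 were called lower with a median of 0.38. Of 26 genes of natriuretic, adrenergic and muscarinic signalling, Npr3 and Gnao1 were called lower with a median of -0.06. The share called lower over all genes tested was 0.2%. The lung marker Sftpc was near 0, at 0, 0 and 0 in ventricles, against 0, 2.44 and 0.933 in atria. The thymus marker Lck was at 0, 0 and 0 in ventricles, against 0, 0 and 20.2 in atria, so it was seen only in the atria of pup 3.

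Several genes that did not pass over all 3 pups were called by limma once a pup was left out. Without pup 3 these included Angpt1, Chrm2, Nr2f2, Pam, Tek and Vsnl1 on the atrial side. On the ventricular side they included Acadm, Cd36, Fabp3, Fabp4, Hadhb, Mb, Myh7, Ndufs6, Pdk4 and Sdha, beside the 9 of the 15 above. Without pup 2 they included Adm, Fbln1, Msln, Scn10a and Vsnl1, lower in ventricles, and Fabp4, Irx2 and Prdm16, higher. Without pup 1, Fbln1 and Msln were called lower. Among named genes that were not called, the difference of Irx5 was 0.85 without pup 2. Without pup 3 that of Fgf13 was 0.57, that of Hopx 0.99 and that of Myh6 0.47. Without pup 1 that of Nr2f1 was -1.08, that of Shox2 -2.08 and that of Pam -0.84.

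The same chamber contrast in the 3 MyHC-Creld1 KO littermates came from other animals and shares no library with the wild-type pups. Of the 30 genes called in wild-type pups, 29 were lower in ventricles than in atria in all 3 KO pups, against 17.2% of all genes tested, the other being 5430419D17Rik. Of the 15 genes on the ventricular side, 14 were higher in ventricles in all 3 KO pups, against 16.3% of all genes, and the other was Fbp2. In KO pups Sln was at 249, 305 and 156 in ventricles, against 9142, 5744 and 10118 in atria. Myl2 was at 44516, 43106 and 51161 in KO ventricles, against 93.5, 97.2 and 51.2 in KO atria, and Irx4 at 186, 224 and 138 in KO ventricles, against 0 in all 3 KO atria. No KO atrial library held a Myl2 signal near the 9242 of wild-type pup 2. Creld1 itself was at 62.2, 59.7 and 129.6 in wild-type ventricles, against 105, 21.6 and 146 in wild-type atria, and the chambers overlapped.

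**Figure D5:**
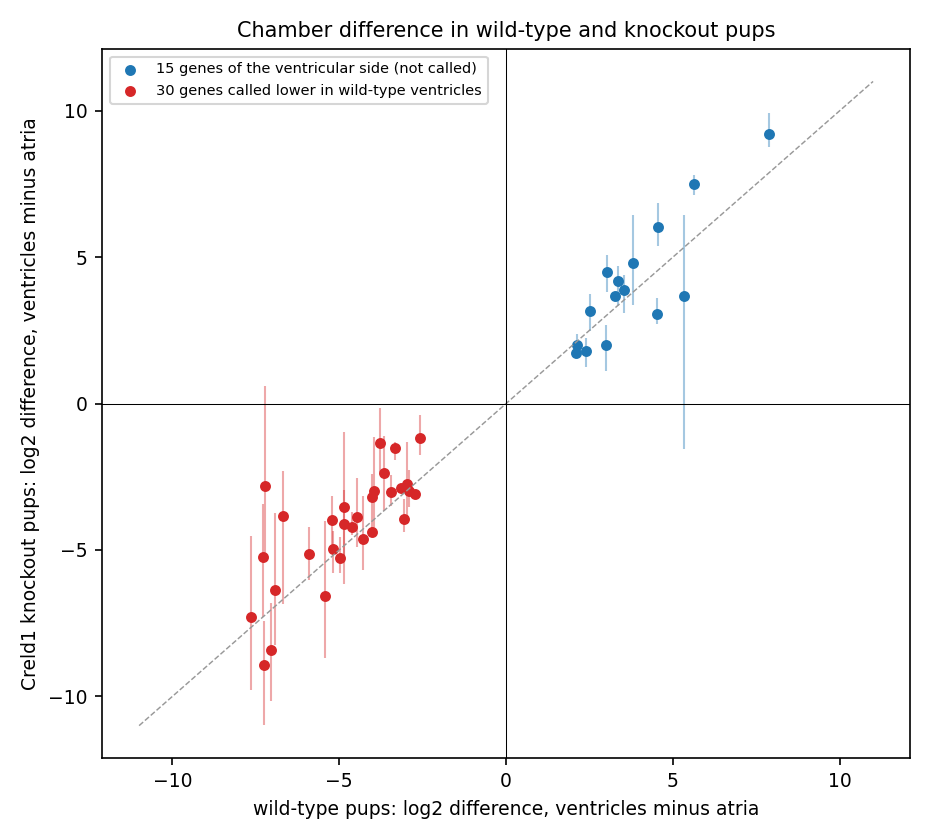
Log2 difference, ventricles minus atria, in MyHC-Creld1 KO pups (vertical, mean of 3 pups with the lowest and highest pup as a line) against that in wild-type pups (horizontal), for the 15 genes of the ventricular side and the 30 called genes; the dashed line marks equal differences. Myl2 lies at 9.20 in KO and 7.89 in wild-type pups, Sln at -5.14 and -5.91, and the lines of 5430419D17Rik and Fbp2 cross 0.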

How the data were processed

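Tissue was frozen, RNA was taken up with the RNeasy Micro kit and cDNA was made by SMART-Seq2, per the labels' protocols. The tools listed by the submitters' processing notes are STAR 2.5.1, bcl2fastq 2.2 and DESeq2, with mm10 as build; a counting tool was not given in the sources used here, nor was each tool's role. A single table came with the series: the authors deposited a normalized signal for each of 26440 genes in 20 libraries, on a linear scale whose formula is not stated. Low values were multiples of a step per library for noncoding genes but not for many others, so counts were not recovered and the total counts printed are estimates. Molecules were not tagged before PCR, so reads are not independent molecules.

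For the 15003 genes at 10 or more in at least 3 of 6 libraries, log2(value + 1) was fitted by limma 3.58.1 in R 4.3.3 with the pup as a block, moderating variances towards a trend on the mean level. Tests were two-sided, with Benjamini-Hochberg adjustment over all genes tested and a call at an adjusted p under 0.05. Differences on this scale understate the change of low genes. The fit had 2 residual and 7.91 prior degrees of freedom and was tested on simulated data.

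The labels give both chambers of a number to 1 pup, which set the pairing, although sex-linked transcripts went against it for number 2. Deviations from the chamber means correlated at -0.0279, 0.0176 and -0.0497 within pups and at -0.100 to 0.108 between pups.

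The members, gene lists and rules were chosen with earlier results of these data known. Named genes were the 4 markers, the sex-linked genes and, in each direction, the 15 largest differences among called genes with a mean of at least 100 in the higher chamber, filled up by smallest p where fewer were called. The 15 in each direction had to have the same direction in every pair. Members of the atrial, ventricular and transcription factor lists were named freely, and other lists gave their called members and up to 6 with the smallest p. Outside this rule, and after their values were seen, Adamts8, Fras1, Epha4, Slc39a8, Igfbp5, Gm13054, C530008M17Rik, 5430419D17Rik, Fgf9, Fgf16, Myh6, Actc1, Cd36, Lpl and the markers Adipoq, Plin4, Sftpc, Lck, Gnai1, Gnai2, Aqp1, Tbx18 and Lrp2 were named. GENCODE M21, which held 26386 of the 26440 gene IDs, gave the coordinates, and RefSeq on GRCm38.p6 the promoters. Alternatives changed the block, pseudocount, filter, scaling, variance trend, pups and libraries. Some genes that the rule selected are not reported here.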

Additional observations from a re-analysis of the deposited data

Results flagged for a closer look

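Lyve1, a receptor of lymphatic vessels and of resident macrophages, went opposite ways in the 2 genotypes. In wild-type pups it was at 141, 101 and 30.3 in ventricles, against 435, 425 and 204 in atria, lower in ventricles in all 3 pups (log2 difference -2.13, limma adjusted p = 0.194). In MyHC-Creld1 KO pups it was at 118, 283 and 107 in ventricles, against 105, 146 and 90.3 in atria, higher in ventricles in all 3 pups, with log2 differences of 0.17, 0.95 and 0.24. Of all genes tested, 16.2% were lower in ventricles in all 3 wild-type pups and 16.3% were higher in all 3 KO pups. The difference between the genotypes was not tested.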

How the results depend on the processing

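The counts of called genes moved with the settings. Without the pup as a replicate block, limma called 2 genes higher in ventricles and 27 lower, 24 of them among the 30. Higher calls were 9 with a pseudocount of 10, 4 with no filter, 7 with a filter of 50 and 9 in the fit of 12 P3 libraries. Lower calls were 14 with a pseudocount of 0.5, 13 after quantile normalization and 0 without a variance trend. Leaving out a pup gave 18 to 58 higher and 53 to 83 lower. Leaving out 1 library without the block gave 0 to 92 higher and 7 to 77 lower; the highest counts came without the atria of pup 3 (92 and 77), and without the atria of pup 2 there were 16 higher and 14 lower. The genes called lower kept their direction in the settings run. Reversed were Nr2f2 (-2.03 to 0.37 leaving out a pup, 0.13 without the block and the atria of pup 1), Kcnd2 (-0.55 to 0.23 leaving out a pup, 0.10 without the block and the atria of pup 2), Myh6 (-0.14) and Actc1 (-0.21), both after quantile normalization; the cause was not tested. With no filter the median of all genes was -0.10. The 3 pups and their 6 libraries limit the precision, and values near 1 estimated count per library cannot show a difference.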
